A study of Mus musculus with 16 samples.

Results

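The suppressors of cytokine signaling (SOCS) form a family of 8 genes in the mouse, *Socs1* to *Socs7* and *Cish*, and all 8 were found by symbol among the 56748 genes of a counts table of Sertoli-like TM4 cells. TM4, a cell line in long use, was once established from mouse Sertoli cells. The cells received 2.5 µg of 1 of 3 plasmids by lipofection 24 h after seeding, and RNA was isolated 24 h later, so that all groups had received plasmid DNA and the same transfection reagent. The EV group (6 samples) carried the empty vector pcDNA3.1-HA. The gdf6Y group (5 samples) carried pcDgdf6Y, which expresses the Y-chromosomal growth factor gene of the turquoise killifish, and the del9 group (5 samples) carried pcDgdf6Ydel9, which expresses the same gene with a short in-frame deletion in the coding sequence of the prodomain. The comparisons ask which mouse genes respond to *gdf6Y*, with the empty vector and the mutant variant as the controls. The table lists only mouse genes, so the killifish transgene itself was not measured there. The members were chosen by symbol as a whole family and not by the value of any member, but the family was selected on earlier log2 fold changes of these same comparisons, and the differences below are therefore a description with no independent support.

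SOCS proteins are the feedback brakes of cytokine receptors that signal through Janus kinases (JAK) and STAT transcription factors. Their SH2 domain binds phosphorylated tyrosines on receptors or kinases, and their SOCS box recruits elongins and cullin 5, which mark the bound protein for degradation. *Cish*, *Socs1*, *Socs2* and *Socs3* are classical STAT-induced genes, so that their transcript levels commonly follow the activity of the receptors that their proteins restrain, whereas *Socs4* to *Socs7* are linked more to receptor tyrosine kinases and insulin signaling. Sertoli cells nurse the germ cells of the testis and respond to interleukin 6 family cytokines and interferons.

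Between 21486850 and 26444903 reads per sample were counted on genes. Of 12 Sertoli cell markers, 5 had a mean count of at least 10 and 2 (*Wt1* and *Dmrt1*) had no read in any of the 16 samples. The summed counts of the 12 markers ranged from 1481 to 1798 with EV, from 1482 to 1676 with gdf6Y and from 1550 to 1812 with del9. One of them, *Gata4*, was lower with gdf6Y than with EV. Its normalized counts averaged 830.9 ± 6.04 in the EV group (SD, n = 6), 722.3 ± 19.0 in the gdf6Y group (SD, n = 5) and 790.5 ± 27.6 in the del9 group (SD, n = 5). The log2 fold change against EV was -0.20 (edgeR adjusted p = 9.98e-05) with gdf6Y and -0.07 (0.365) with del9. Of all genes with mean counts of 100 or more, 12.9% had an edgeR adjusted p below 0.05 for gdf6Y against EV. *Gata4* was named after its values were seen. Leydig cell markers summed to 17 to 33, 27 to 36 and 28 to 36 with 3 of 6 at 0 in all samples, germ cell markers to 0 to 5, 0 to 5 and 1 to 3 with none of 3 at 0 in all samples, and blood cell markers to 432 to 689, 461 to 715 and 526 to 739 with 2 of 7 at 0 in all samples, almost all of the last from *Cd14*. The part of these markers in the results was not tested. Nothing in the labels says that replicates were separate cultures, so p-values refer to these samples only. The edgeR fit also draws the spread of each gene toward that of the other genes tested. Its standard errors (SE) and p-values therefore do not measure a gene's own spread between these samples alone. In bulk RNA, fewer cells that express a gene and less RNA per cell cannot be told apart.

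On GRCm39, the compact gene *Socs3* spans chr11:117856905-117860898 on the minus strand, and *Socs7* lies on the plus strand of the same chromosome at chr11:97253032-97289368. *Socs2* spans chr10:95219523-95253929 (minus), *Socs4* chr14:47514368-47533559 (plus) and *Socs5* chr17:87414674-87445267 (plus). *Socs1* spans chr16:10600104-10603875 (minus) and *Cish* chr9:107173225-107179983 (plus). The annotation places other genes on the opposite strand of every member but *Socs4*, and counting used the strand. Reads shared by overlapping genes were discarded in counting.

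Promoter sequences are shown for *Cish* and *Socs3*, whose starts are textbook STAT targets, and for *Socs4*, which was lower in the del9 group. They run from 250 bases before the annotated start to 30 bases after it and come from RefSeq on GRCm38.p6, which held 4 of the 8 members (*Socs1*, *Socs3*, *Socs4* and *Cish*). Capitals mark TTCNNNGAA, the palindromic motif bound by STAT dimers, which reads the same on both strands. They are *Cish* at chr9:107296409-107296688 (plus strand), *Socs3* at chr11:117969337-117969616 (minus strand) and *Socs4* at chr14:47276670-47276949 (plus strand).
Cish: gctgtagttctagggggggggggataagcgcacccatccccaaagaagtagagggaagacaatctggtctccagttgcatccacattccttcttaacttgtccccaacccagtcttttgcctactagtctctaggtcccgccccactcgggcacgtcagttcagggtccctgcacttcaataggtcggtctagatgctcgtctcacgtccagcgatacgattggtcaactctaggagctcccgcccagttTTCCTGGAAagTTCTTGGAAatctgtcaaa
Socs3: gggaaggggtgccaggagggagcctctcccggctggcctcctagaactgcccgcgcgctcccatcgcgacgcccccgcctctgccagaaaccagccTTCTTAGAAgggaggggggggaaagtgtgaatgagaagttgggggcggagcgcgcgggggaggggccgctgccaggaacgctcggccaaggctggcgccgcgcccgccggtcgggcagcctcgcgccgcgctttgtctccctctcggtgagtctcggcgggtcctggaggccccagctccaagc
Socs4: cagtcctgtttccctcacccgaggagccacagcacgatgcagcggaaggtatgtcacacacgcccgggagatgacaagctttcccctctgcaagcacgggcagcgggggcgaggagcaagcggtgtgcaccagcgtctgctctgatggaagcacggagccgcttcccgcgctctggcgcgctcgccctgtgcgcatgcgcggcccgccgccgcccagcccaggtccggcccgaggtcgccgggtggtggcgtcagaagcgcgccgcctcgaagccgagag

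The *Cish* window held 2 matches, which start 0 and 11 bases after the annotated start and do not overlap. *Socs3* held 1 match, which begins 154 bases before the start, and the windows of *Socs4* and *Socs1* held 0. Among 32851 RefSeq promoter windows of the same 280 bases, 7.83% held at least 1 match. A match is a description of the sequence and not a measured binding site.

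All 8 members were counted in every sample, and 7 of them had a mean count of at least 100. Scaled by the length of merged exons, *Socs3* led the family in EV samples with 17.2 ± 1.31 RPKM (counted reads divided by exon length in kilobases and by library size; SD, n = 6), followed by *Socs5* with 7.94 ± 0.274, *Socs4* with 6.47 ± 0.184, *Socs6* with 5.28 ± 0.142, *Socs7* with 4.68 ± 0.144 and *Socs2* with 3.98 ± 0.114 (SD, n = 6 each). *Socs1*, the strongest inhibitor of interferon signaling in the family, followed with 1.43 ± 0.128, and *Cish*, the classical STAT5 target, came last with 0.102 ± 0.0427. No neighbors in this order overlapped among the 6 EV samples. With the length of the longest transcript the order between the ends changed: *Socs2* rose to the third place with 10.4 RPKM, because its annotation merges 52 transcripts into 15258 bases against 5841 for the longest. *Socs2* (10.0 to 10.7 over the EV samples) and *Socs6* (9.73 to 10.3) then overlapped. *Socs3*, *Socs5*, *Socs1* and *Cish* kept their ranks under either length.

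**Figure D1:**
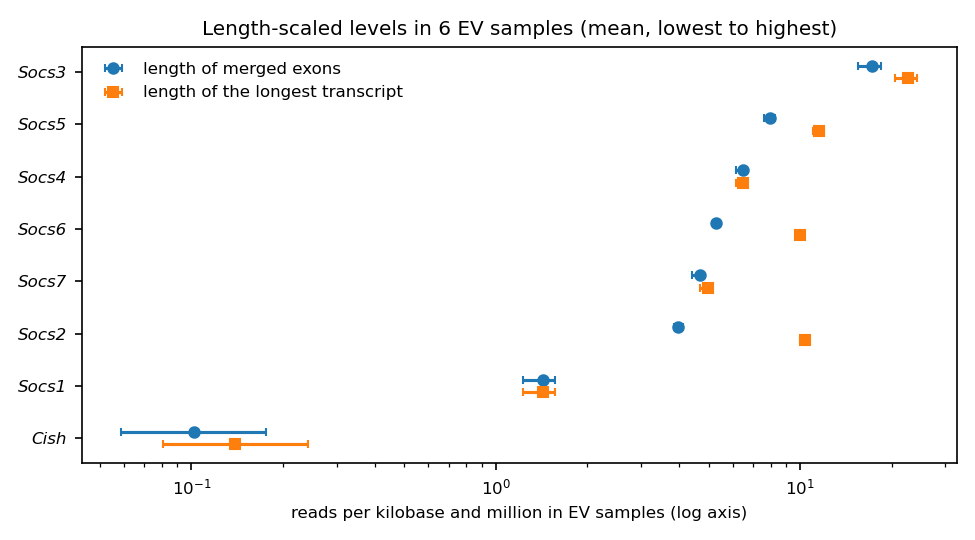
Levels of the 8 SOCS family members in the 6 EV samples, as RPKM on a log axis, scaled by merged exons (circles) or by the longest transcript (squares); bars run from the lowest to the highest sample. *Socs3* lies highest and *Cish* lowest with either length, and *Socs2* moves from 3.98 to 10.4.

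Compared with the empty vector, *gdf6Y* went with more *Socs2* and less *Socs3*, and the mutant variant with less *Socs3* and less *Socs4*. Compared with the mutant variant, *gdf6Y* went with more *Socs2*. Each of these differences was small, between 0.875-fold and 1.14-fold. In the comparison of gdf6Y with EV, 1 of 8 members was called higher and 1 lower by edgeR's quasi-likelihood test at an adjusted p below 0.05, beside 1.70% of all 26316 genes tested that were higher and 3.38% that were lower. In del9 against EV, 0 members were called higher and 2 lower, beside 4.82% and 4.43% of 26226 genes. In gdf6Y against del9, 1 member was called higher and 0 lower, beside 0.599% and 0.410% of 25878 genes. Of the genes with mean counts of 100 or more, which 7 of the 8 members reach, 12.9%, 21.7% and 1.96% were called in either direction in the 3 comparisons. Blocking on the replicate number raised the count of genes higher with gdf6Y than with EV from 448 to 821, while no member's call changed. The members' shares are read as no result, because the family was selected on these comparisons. At an unadjusted p below 0.05 the same tool gave 2, 2 and 1 members in the 3 comparisons, and DESeq2 called 2, 1 and 1. The shares of all genes by either of these rules are not given, so these counts are read as no result either. The median log2 fold change of the 8 members was -0.01 in each comparison, beside 0.00, -0.01 and 0.01 over all genes tested. EV samples are shared by the first 2 comparisons, and gdf6Y and del9 samples are each shared by 2 comparisons as well.

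**Figure D2:**
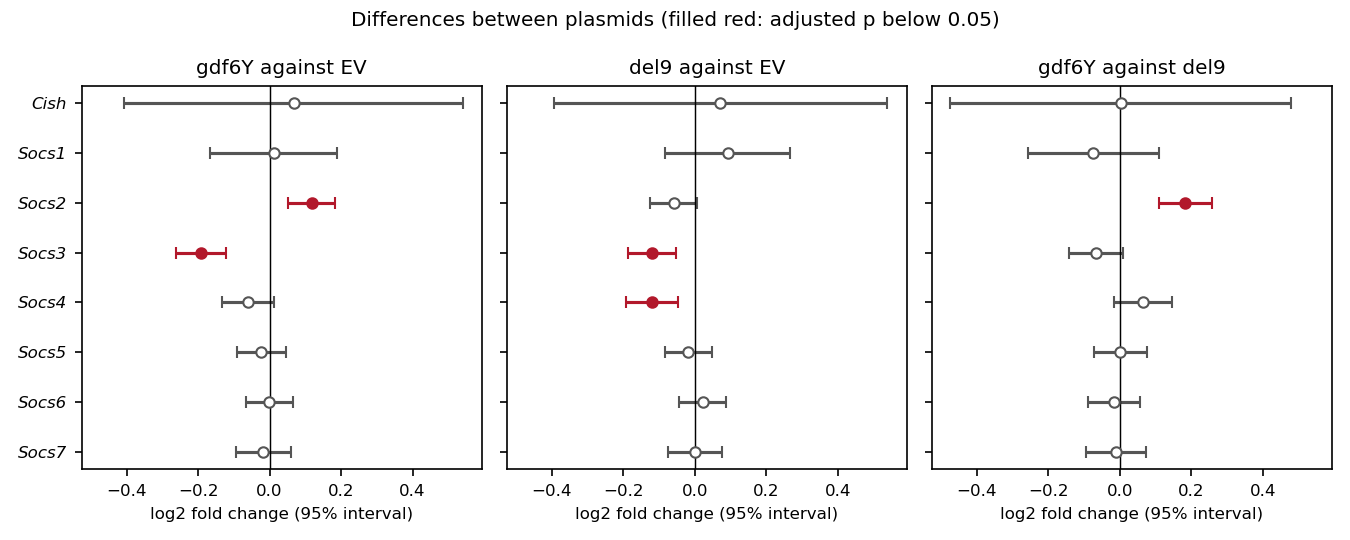
Log2 fold changes (x axis) of the 8 members in the 3 comparisons, with 95% intervals from edgeR's quasi-likelihood fit; filled red points have an adjusted p below 0.05. *Socs2* is the member called in both comparisons of gdf6Y, and the widest intervals belong to *Cish*.

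*Socs2* encodes the member best known for restraining growth hormone signaling. With EV its normalized counts ran from 1442 over a median of 1498 to 1546. With gdf6Y they were 1628, 1621, 1616, 1603 and 1634, and with del9 they were 1394, 1452, 1409, 1536 and 1371. The lowest gdf6Y sample thus lay above the highest EV and the highest del9 sample, while the del9 and EV samples overlapped. The EV mean was 1495 ± 42.9 (SD, n = 6), the gdf6Y mean 1621 ± 11.7 (SD, n = 5) and the del9 mean 1432 ± 64.9 (SD, n = 5). The gdf6Y samples spread over a coefficient of variation of 0.723%, below the 2.50% that counting alone would give, against 4.53% among the del9 samples. *Socs2* was 1.09-fold higher with gdf6Y than with EV, a log2 fold change of 0.12 (SE 0.03, 95% interval 0.05 to 0.18), with an adjusted p of 0.0141 by edgeR's quasi-likelihood test (Benjamini-Hochberg). Against del9 the log2 fold change was 0.18 (SE 0.04, 95% interval 0.11 to 0.26), with an edgeR adjusted p of 0.00032. Between del9 and EV it was -0.06 (95% interval -0.12 to 0.01), with an edgeR adjusted p of 0.359. Groups that do not overlap in the higher direction were seen in 1.26% of all genes for gdf6Y against EV and in 0.560% for gdf6Y against del9. These shares cover genes at any depth: 10062 of 26316 and 10083 of 25878 had a mean count of at least 100. The share among genes of like count is not given.

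The *Socs2* difference kept its direction and its call in all 20 alternative fits against EV, with adjusted p-values from 0.0043 to 0.0485, and in all 19 against del9, with adjusted p-values from 1.1e-06 to 0.0119. Taken by the replicate numbers that the labels share, *Socs2* was higher with gdf6Y in 5 of 5 numbers against EV (log2 ratios from 0.05 to 0.17) and in 5 of 5 against del9 (0.06 to 0.25). Both counts follow from groups that do not overlap and are no further check. Del9 lay below EV in 5 of 5 numbers as well, by log2 ratios from -0.13 to -0.01, although that difference was not called.

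**Figure D3:**
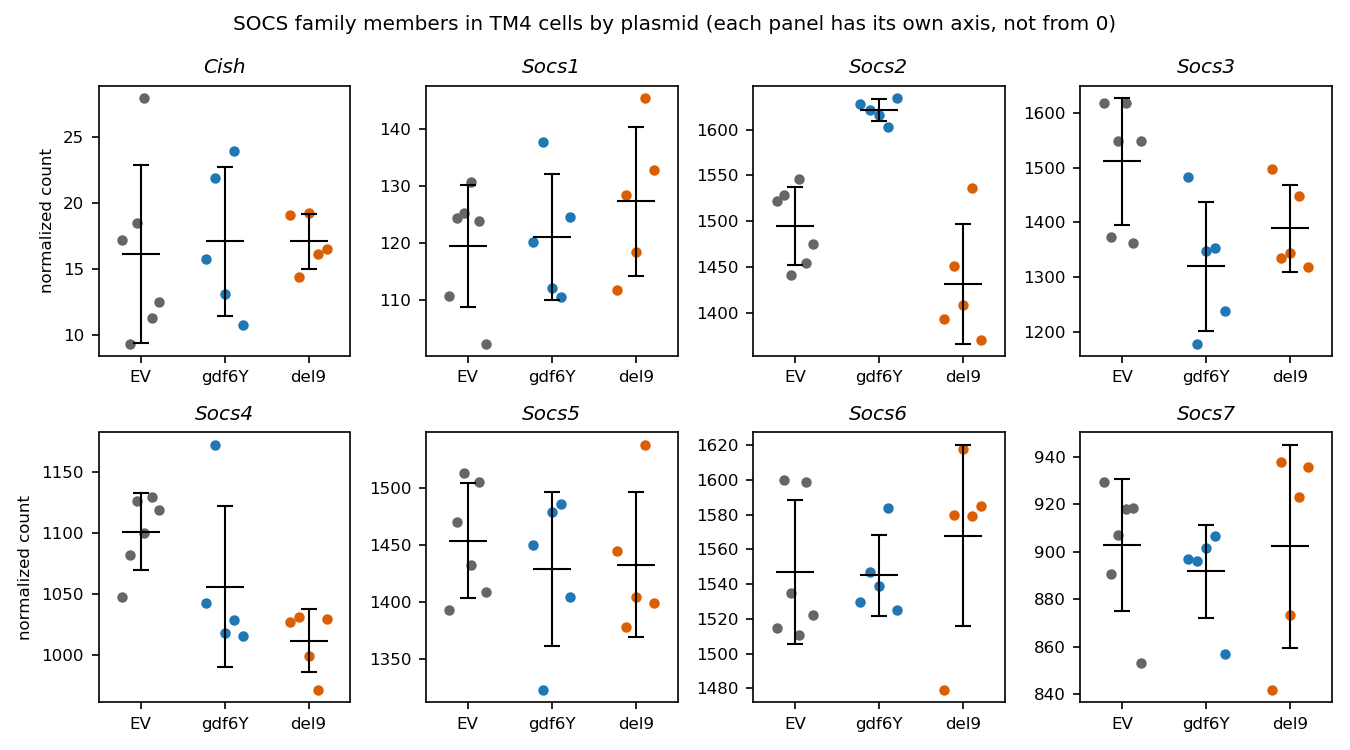
Normalized counts (y axis, a range of its own in each panel that does not start at 0) of the 8 members in the 6 EV, 5 gdf6Y and 5 del9 samples; points are samples, and bars show the mean and SD. The 5 gdf6Y samples of *Socs2* lie between 1603 and 1634, above all EV and del9 samples.

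*Socs3* encodes the main brake on receptors of the interleukin 6 family, which share the gp130 subunit. With EV its normalized counts ran from 1362 over a median of 1549 to 1617. They were 1483, 1179, 1347, 1354 and 1238 with gdf6Y, and 1498, 1335, 1345, 1448 and 1319 with del9. Both groups overlapped with EV, and 4 of 5 gdf6Y samples and 3 of 5 del9 samples lay below the lowest EV sample. The EV mean was 1511 ± 115 (SD, n = 6), the gdf6Y mean 1320 ± 117 (SD, n = 5) and the del9 mean 1389 ± 79.1 (SD, n = 5). The log2 fold change was -0.19 (SE 0.04, 95% interval -0.26 to -0.12) for gdf6Y against EV, with an adjusted p of 8.43e-06 by edgeR's quasi-likelihood test, or 0.875-fold. It was -0.12 (SE 0.03, 95% interval -0.19 to -0.05) for del9 against EV, with an edgeR adjusted p of 0.00781, or 0.921-fold. For gdf6Y against EV the SE of *Socs3* was 0.0354, close to the 0.0337 of *Socs2*, although *Socs3* varied more among replicates. The intervals and adjusted p-values of *Socs3* against EV thus do not carry its own spread in full. The groups gdf6Y and del9 differed by -0.07 (95% interval -0.14 to 0.01; edgeR adjusted p = 0.654), so that neither an equal level nor a lower one with gdf6Y was shown.

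*Socs3* also varied more among replicates than most genes of like count. Its coefficient of variation within groups was 7.52%, against 2.67% from counting alone and a median of 3.79% over 1487 genes of like count, among which *Socs3* stood at percentile 96.5. *Socs6* stood at percentile 9.6 of its like-count genes, *Socs7* at 20.2, *Socs2* at 24.8, *Socs1* at 42.7, *Socs4* at 54.6 and *Socs5* at 65.7. The *Socs3* values moved with the replicate number: numbers 2 and 5 were the lowest and numbers 1 and 4 the highest in the EV and gdf6Y groups, and the del9 group had the same 2 highest and the same 2 lowest numbers. Within numbers, gdf6Y lay below EV in 5 of 5 (log2 ratios from -0.26 to -0.12), del9 below EV in 5 of 5 (-0.20 to -0.04) and gdf6Y below del9 in 4 of 5. What the numbers stand for is not given in the labels, and their part in the spread was not tested. The call against EV was kept for gdf6Y in all 20 alternative fits, but its adjusted p rose to 0.0124 with DESeq2 and to 0.0343 with filterByExpr, where the SE was 0.05. For del9 the call was lost with DESeq2 (adjusted p = 0.0706), filterByExpr (0.0733) and at least 10 counts in every sample (0.076), and without EV replicate 1 (0.0586), EV replicate 4 (0.0743) or del9 replicate 5 (0.0609).

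**Figure D4:**
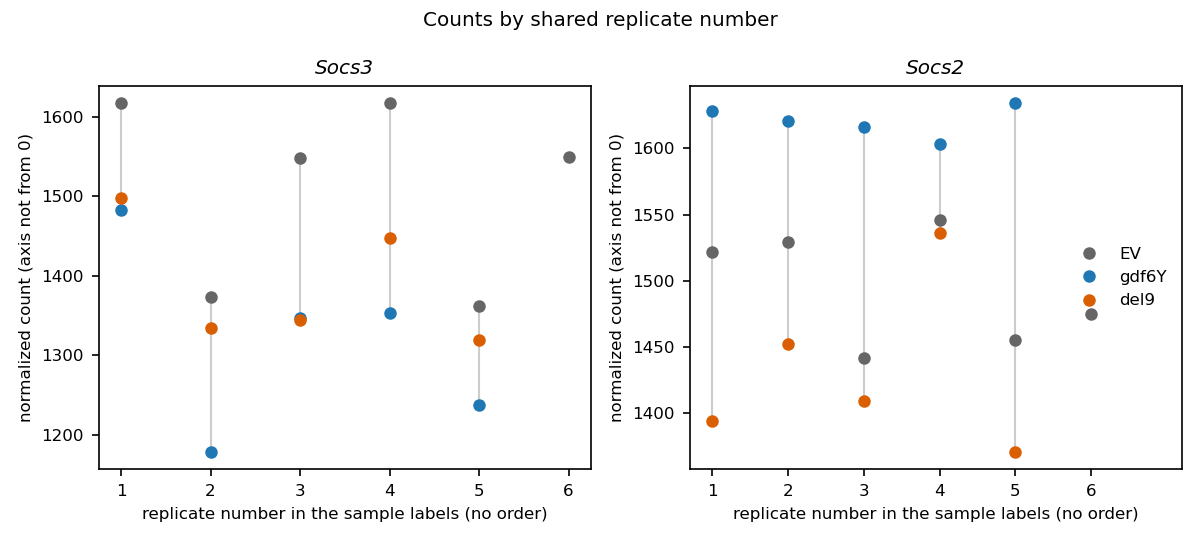
Normalized counts (y axis, not from 0) of *Socs3* and *Socs2* against the replicate number in the labels; grey lines join the samples that share a number, and number 6 has an EV sample only. For *Socs3* numbers 2 and 5 are low and 1 and 4 high in all 3 groups. For *Socs2* gdf6Y is highest at each of the 5 shared numbers, which follows from groups that do not overlap.

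*Socs4* encodes a member linked to the epidermal growth factor receptor. With EV its normalized counts ran from 1048 over a median of 1109 to 1129. With gdf6Y they were 1043, 1172, 1018, 1029 and 1016, and with del9 they were 1027, 1031, 999, 971.5 and 1030. All del9 samples lay below the lowest EV sample, as seen in 1.60% of all genes at any depth. The gdf6Y group held both the highest of the 16 values and 4 values below the lowest EV sample. The log2 fold change for del9 against EV was -0.12 (SE 0.04, 95% interval -0.19 to -0.05), with an adjusted p of 0.0198 by edgeR's quasi-likelihood test. The call was kept in all 9 other settings with every sample, and lost without EV replicate 3 (adjusted p = 0.0601), del9 replicate 3 (0.0588) or del9 replicate 4 (0.0801). For gdf6Y against EV the value was -0.06 (95% interval -0.13 to 0.01; edgeR adjusted p = 0.51), and without gdf6Y replicate 2 it was -0.10.

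The other 5 members did not pass the test in any comparison. *Socs5*, linked like *Socs4* to the epidermal growth factor receptor, averaged 1454 ± 50.1 normalized counts in the EV group (SD, n = 6), 1429 ± 67.2 in the gdf6Y group (SD, n = 5) and 1433 ± 63.4 in the del9 group (SD, n = 5). *Socs6*, known to act on KIT and insulin signaling, lies at chr18:88683348-88945635 on the minus strand of GRCm39 and is the 1 member that overlaps genes annotated on its own strand (*Gm50406* and *Gm6409*). It averaged 1547 ± 41.5, 1545 ± 23.4 and 1568 ± 52.2 in the same order. *Socs7*, which binds insulin receptor substrates, averaged 903 ± 27.7, 892 ± 19.8 and 902 ± 42.7. Over these 3 genes and the 3 comparisons, log2 fold changes ran from -0.02 for *Socs5* with gdf6Y against EV to 0.02 for *Socs6* with del9 against EV. The 95% intervals of *Socs5* and *Socs6* against EV reached from -0.09 to 0.09, and those of *Socs7* from -0.09 to 0.08.

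*Socs1* averaged 119.5 ± 10.7 normalized counts in the EV group (SD, n = 6), 121.0 ± 11.0 in the gdf6Y group (SD, n = 5) and 127 ± 13.0 in the del9 group (SD, n = 5). Its raw counts of 90 to 153 limit the precision: the 95% intervals were -0.17 to 0.19 for gdf6Y against EV and -0.08 to 0.27 for del9 against EV. *Cish* was counted at 9 to 28 reads per sample. It averaged 16.1 ± 6.76 normalized counts in the EV group (SD, n = 6), 17.1 ± 5.64 in the gdf6Y group (SD, n = 5) and 17.1 ± 2.08 in the del9 group (SD, n = 5). Its interval of -0.41 to 0.54 for gdf6Y against EV means that a difference of the size seen in *Socs2* or *Socs3* was not detectable at this depth.

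Among genes averaging 100 counts or more, those whose log2 CPM followed a member most closely over the 16 samples were named as a description. *Socs3* was followed most closely by *Castor2* (Pearson r = 0.955 over 16 samples), *Mmp19*, a matrix metalloproteinase (0.949), and *Aldh1l2*, a mitochondrial folate enzyme (0.942). With the group means removed these values were 0.93, 0.913 and 0.935, so that the likeness lay mostly among replicates. *Socs2* was followed by *Ifi202b* (0.855), the receptor-regulated *Smad9* (0.854) and the kinetochore gene *Spc25* (0.838). Removal of the group means left 0.187 for *Smad9*, against 0.626 and 0.624 for the others. *Socs4* was followed by *F730043M19Rik* (0.872), *Epm2aip1* (0.863) and *Ptpn23* (0.828). Each of these was the best of 10075 genes, and the samples share 3 group means. Between the members themselves, Pearson r after removal of the group means ran from -0.622 for *Socs3* and *Socs6* to 0.506 for *Socs1* and *Socs7* over the same 16 samples.

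The cytokine pathway around the SOCS family was counted by lists, whose counts stand beside the 12.9% and 21.7% of all genes with mean counts of 100 or more that were called with gdf6Y and with del9 against EV. Of 10 tested JAK and STAT genes, 2 were lower with gdf6Y than with EV (*Stat2*, log2 fold change -0.25, and *Stat3*, -0.11), with 0 higher in either comparison with EV. With del9, *Stat2* (-0.28) and *Stat3* (-0.09) were lower as well. The median log2 fold change of the list was -0.09 and -0.06. Of 18 tested cytokine receptors, 3 were lower with gdf6Y, all of the gp130 group: *Osmr* at -0.20, *Il6st*, which encodes gp130 itself, at -0.14 and *Lifr* at -0.20. The same 3 were lower with del9, at -0.21, -0.09 and -0.21, and *Il6ra* was higher at 0.15. Not all receptors of the gp130 group were lower with gdf6Y. *Il6ra* at 0.05 and *Il11ra1*, named after its values were seen, at 0.10 were not called, and *Cntfr* had at most 2 reads per sample. The medians over the receptors were 0.03 and -0.04. *Ghr*, the growth hormone receptor that SOCS2 restrains, was named after its values were seen and averaged 3730 ± 110 normalized counts in the EV group (SD, n = 6), 3671 ± 111 in the gdf6Y group (SD, n = 5) and 3565 ± 81.6 in the del9 group (SD, n = 5), with log2 fold changes of -0.02 and -0.06 against EV that were not called. *Stat2* and *Osmr* kept both calls in all 20 alternative fits. *Stat3* kept 16 of 20 with gdf6Y and 10 of 20 with del9, and *Il6ra* 5 of 20. *Il6st* kept the call with gdf6Y in all 20 and lost it with del9 without EV replicate 1, EV replicate 4, del9 replicate 3 or del9 replicate 5. *Lifr* lost the call with gdf6Y in DESeq2, under both stricter count filters and without gdf6Y replicate 2, and with del9 in the same 3 settings and without del9 replicate 5.

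Some targets of the pathway were lower as well. Of 18 interferon response genes, which SOCS1 restrains, 11 were lower and 0 higher with gdf6Y, led by *Rsad2* at -0.39, *Ifit3* at -0.43, *Oas2* at -0.36 and *Ifit1* at -0.25. With del9, 13 were lower and 0 higher, led by *Ifit3* at -0.42, *Rsad2* at -0.35, *Gbp2* at -0.47 and *Stat2* at -0.28. The list's median was -0.22 and -0.23, beside 0.00 and -0.01 over all genes tested. *Socs1*, itself an interferon-induced gene, was at 0.01 and 0.09 and was not called. Over the fits with 1 sample left out, 11 to 12 genes were lower with gdf6Y and 12 to 14 with del9. Of 20 tested STAT3 and acute phase targets, 3 were lower with gdf6Y (*Osmr*, *Hif1a* at -0.15 and *Bcl3* at -0.32) and 0 higher, whereas with del9 5 were lower and 5 higher. The lower ones with del9 were *Hif1a* (-0.19), *Osmr*, *Bcl6* (-0.24) and, named after their values were seen, *Bcl3* (-0.32) and *Cebpd* (-0.26), and the higher ones were *Ccnd1* (0.15) and, named likewise, *Myc* (0.13), *Timp1* (0.12), *Junb* (0.12) and *Pim3* (0.08). The medians of this list were -0.05 and -0.07. Over the 9 other settings with every sample, 0 to 2 genes of this list were higher and 1 to 3 lower with gdf6Y. With del9, 4 to 5 were higher and 4 to 5 lower in these settings. With gdf6Y, *Bcl3* was not called under the stricter count filters, nor *Hif1a* under these and by DESeq2.

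Of 8 genes listed for neddylation and for the cullin 5 ligase, which the SOCS box recruits, 3 were higher and 0 lower in both comparisons with EV. For gdf6Y and del9 they were the NEDD8-conjugating enzyme gene *Ube2m* at 0.12 and 0.12, *Nedd8* at 0.10 and 0.13 and *Elob*, the elongin that binds the SOCS box, at 0.10 and 0.09. The medians of the list were 0.08 and 0.08. *Ube2f*, the other NEDD8-conjugating enzyme gene of the list, was named after its values were seen and was not called. It averaged 1417 ± 49.7 normalized counts in the EV group (SD, n = 6), 1390 ± 30.6 in the gdf6Y group (SD, n = 5) and 1490 ± 15.8 in the del9 group (SD, n = 5). *Elob* kept its call in 9 of 20 alternative fits with gdf6Y and in 7 of 20 with del9. *Ube2m* lost it with gdf6Y without gdf6Y replicate 3 (edgeR adjusted p = 0.0515), and *Nedd8* without EV replicate 2, EV replicate 4 or gdf6Y replicate 5. Of the other SOCS box proteins, 1 of 20 was higher with gdf6Y (*Wsb2* at 0.09, in 13 of 20 alternative fits) and 2 of 21 were higher with del9 (*Wsb2* at 0.14 and *Asb6* at 0.12, the latter in 6 of 20 alternative fits), with *Wsb1* lower at -0.12. The medians were 0.08 and 0.06.

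Several receptor kinases and adaptors that SOCS proteins bind were lower. Of 9 tested, 4 were lower with gdf6Y and 0 higher: the insulin receptor substrate gene *Irs2* at -0.21, *Insr* at -0.19, *Egfr* at -0.20 and *Igf1r* at -0.14. With del9, 4 were lower, *Irs1* at -0.32, *Insr* at -0.20, *Irs2* at -0.14 and *Igf1r* at -0.13, and 1 was higher, *Grb2* at 0.09, which was named after its values were seen and was not called in 5 of 9 other settings with every sample. The medians were -0.14 and -0.20. Of 13 other suppressors of the pathway, 2 were lower with gdf6Y (*Sh2b1* at -0.16 and *Pias3* at -0.11, the latter in 7 of 20 alternative fits) and 1 was higher with del9 (*Ptpn1* at 0.09, in 8 of 20), with medians of -0.04 and -0.02. *Sh2b1* lost its call without gdf6Y replicate 4. Of the ligands, 0 of 12 were called with gdf6Y by edgeR's quasi-likelihood test, with 3 at an unadjusted p below 0.05, 0 by DESeq2 and a median of 0.00. With del9, *Lif* was higher at 0.18 and *Il15* lower at -0.29 among 11 ligands, with a median of -0.14, and these calls were kept in 8 and 11 of 20 alternative fits.

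Between gdf6Y and del9, 2 genes of all 9 lists were called, beside 1.96% of all genes with mean counts of 100 or more. They are named as a description and not as a result about the lists. *Wsb1* was higher with gdf6Y at 0.14 (edgeR adjusted p = 0.00669), and *Irs1* was higher at 0.21 (edgeR adjusted p = 0.0287). *Wsb1* and *Irs1* kept the call in 12 and 9 of 19 alternative fits and neither was called by DESeq2. In the other 7 lists 0 genes were called by edgeR or DESeq2. At an unadjusted p below 0.05, edgeR gave 1 of 10 JAK and STAT genes, 0 of 19 receptors, 2 of 12 ligands, 2 of 8 ligase genes, 1 of 13 other suppressors, 5 of 20 STAT3 targets and 1 of 18 interferon response genes. The share of all genes at this unadjusted threshold is not given for any comparison. With the replicate number as a block, 1 ligand and 1 STAT3 target were called higher and 1 JAK or STAT gene and 2 STAT3 targets lower.

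**Figure D5:**
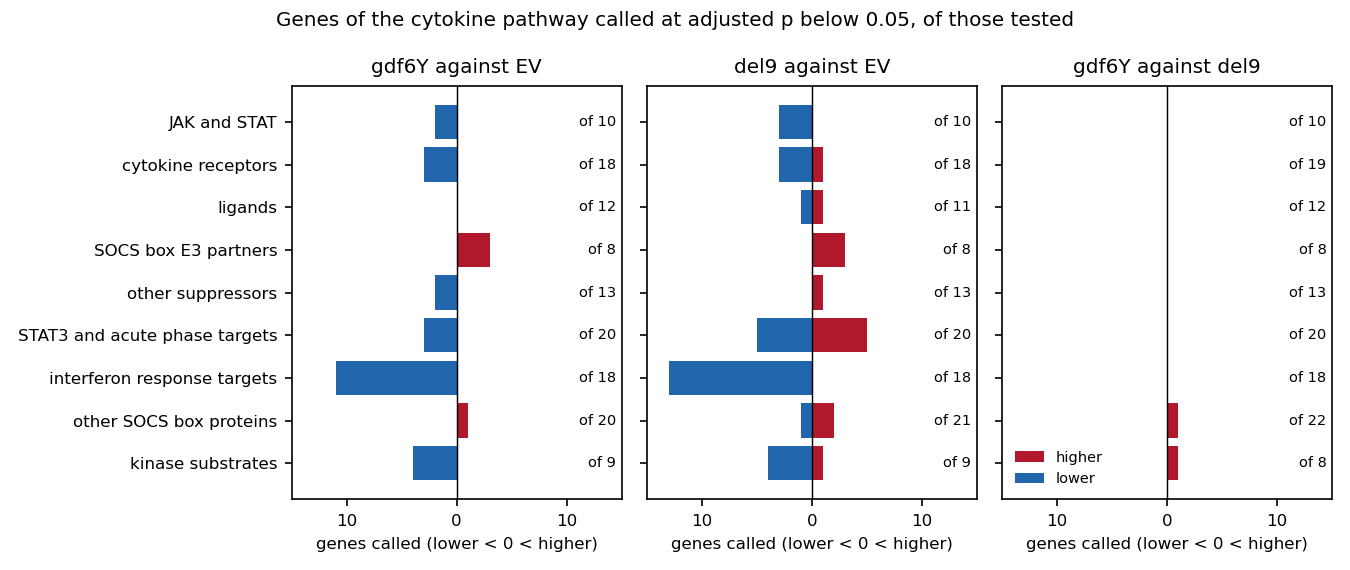
Number of genes (x axis) of 9 lists around the SOCS family called lower (left, blue) or higher (right, red) at an adjusted p below 0.05 in the 3 comparisons, with the number tested beside each bar. Interferon response genes have the most calls, 11 lower with gdf6Y and 13 lower with del9 against EV, and 2 lists hold 1 call each between gdf6Y and del9.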

How the data were processed

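RNA-Seq counts of 16 samples of TM4 cells were used. The authors extracted unique molecular identifiers with UMI-tools, aligned the reads to GRCm39 with STAR 2.7.10a, removed PCR duplicates and counted unique reads per gene on its strand with featureCounts 2.0.3, so that the deposited counts are raw whole numbers. Poly(A) libraries started from 300 ng of total RNA.

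The quasi-likelihood test of edgeR 4.0.16 (R 4.3.3) was fitted to 2 groups at a time, with TMM scaling and no covariate, on every gene that reached 1 count in some sample of the pair. Benjamini-Hochberg adjustment ran over all these genes, and a gene was called at an adjusted p below 0.05. The SE is the log2 fold change divided by the root of the F statistic. Normalized counts were scaled to the mean of the effective (TMM-corrected) library sizes. Symbols and lengths are those of GENCODE for GRCm39, in which 56017 of 56748 identifiers were found, in another release than the authors counted with. Likeness was measured on log2 CPM with a pseudocount of 1. The steps were tested on simulated counts.

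The members and the gene lists were chosen with earlier results of these data known. All members are reported. From each list, the genes with the smallest adjusted p-values were named, at most 4 per comparison, and for each member with a mean count of at least 100, 3 genes with the highest Pearson correlation, of which those of the called members are printed. A correlation over 0.1 in every pair of equal replicate numbers was taken as pairing. Deviations from the group means met this between gdf6Y and EV (correlations of 0.153 to 0.43 in 5 pairs) and between gdf6Y and del9 (0.224 to 0.395 in 5 pairs). They did not between del9 and EV (0.09 to 0.32, with 4 of 5 over 0.1). Samples of gdf6Y correlated best with their own number in 4 of 5 cases against either group, and del9 samples in 2 of 5 against EV. Alternatives were DESeq2 1.42.0, other scalings, stricter count filters, all 3 groups in one model, the replicate block, each sample left out in turn and, chosen after seeing the data, edgeR 4's quasi-likelihood dispersion. Depth limits the precision for low counts. Samples that the authors excluded for low quality were not analysed here. The values of 1 list gene are not reported here.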

Additional observations from a re-analysis of the deposited data

Results flagged for a closer look

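Of 120 groups of values (40 genes in 3 groups), 8 held a sample far from the others by Dixon's ratio of the gap to the range, and about 6 would be picked by chance. Among the SOCS members, *Socs4* in gdf6Y had a ratio of 0.828, with replicate 2 at 1172 normalized counts against 1016 to 1043 in the others. *Socs6* in del9 had a ratio of 0.721, with replicate 1 at 1479 against 1579 to 1618. *Socs7* in gdf6Y had a ratio of 0.79, with replicate 5 at 857 against 896 to 907. Among the list genes, the ratio in gdf6Y was 0.776 for *Oas2* (replicate 1), 0.841 for *Gbp2* (replicate 2), 0.79 for *Insr* (replicate 1) and 0.746 for *Igf1r* (replicate 1). For *Irs2* in del9 it was 0.789 (replicate 2). The log2 fold change of *Socs4* for gdf6Y against EV was -0.06 with its replicate 2 and -0.10 without it, and was called in neither case.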

How the results depend on the processing

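The calls of *Socs2* against both controls and of *Socs3* for gdf6Y against EV were kept in all 20 (against EV) and 19 (against del9) alternative fits. In del9 against EV the number of members called fell to 1 (*Socs4*) with DESeq2, filterByExpr and at least 10 counts in every sample, and was 1 to 2 when 1 sample was left out. With the replicate number as a block, no member's call changed (*Socs2* 0.115 and *Socs3* -0.186 for gdf6Y against EV, *Socs2* 0.183 for gdf6Y against del9), while genes called rose from 448 to 821 higher in gdf6Y against EV and from 155 higher and 106 lower to 289 and 372 in gdf6Y against del9. In that last comparison DESeq2 gave 48 higher and 33 lower, filterByExpr 26 and 19, at least 10 counts in every sample 25 and 19, and edgeR 4's dispersion 59 lower.

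When 1 sample was left out, genes called ranged from 235 (without gdf6Y replicate 5) to 718 (without gdf6Y replicate 1) higher and from 559 to 1033 lower in gdf6Y against EV, with 289 higher without gdf6Y replicate 3, and from 94 to 243 higher and 66 to 198 lower in gdf6Y against del9, lowest without del9 replicate 2 and highest without del9 replicate 1, with 197 lower without gdf6Y replicate 1. Signs turned for members near 0 that were never called. For gdf6Y against EV, *Socs6* was at 0.000475 with upper quartile scaling, 0.00129 with at least 10 counts and 0.00175 with 3 groups in one model, and *Socs1* at -0.0246 with the block. For del9 against EV, *Socs7* was at -0.0157 with total counts, -0.00461 with DESeq2's size factors, -0.0046 with DESeq2, -0.00831 with upper quartile scaling, -0.00621 with filterByExpr, -0.00457 with at least 10 counts, -0.00375 with 3 groups in one model and -0.0144 with the block. *Cish* was at -0.000749 between gdf6Y and del9 with the block. With 1 sample left out, gdf6Y against EV ranged from -0.0347 to 0.0466 for *Socs1*, -0.0347 to 0.00498 for *Socs5*, -0.00534 to 0.00936 for *Socs6* and -0.0835 to 0.296 for *Cish*. Del9 against EV ranged from -0.0154 to 0.0221 for *Socs7* and -0.0478 to 0.298 for *Cish*, and gdf6Y against del9 from -0.0156 to 0.0268 for *Socs5*, -0.0373 to 0.00105 for *Socs7* and -0.154 to 0.117 for *Cish*. The cause of these shifts was not tested. *Cish* has no value with at least 10 counts in every sample of a comparison with EV. Depth limits *Cish* and *Socs1*.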
